A study of Mus musculus with 24 samples.

Results

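The cytosolic ribosomal protein genes encode the protein components of the 60S and 40S subunits of the ribosome. They were taken from the exon-level expression table by symbol, as every gene named Rpl or Rps with a number, together with Rpsa and the stalk genes Rplp0, Rplp1 and Rplp2, and without pseudogenes marked -ps. The rule found 88 of the 33079 rows, which carry 85 symbols, with 54 rows for the large subunit and 34 for the small. Of these rows 83 were expressed, taken as a mean above 0.5 RPM (reads scaled to the library total alone) in WT or KO, among 15112 expressed genes of the whole table. The other 5 rows were Rpl10l, Rpl3l, Rpl39l, Rpl32l and a second row of Rps27 on chromosome 9. Rpl29 has 3 rows, on chromosomes 1, 5 and 9, and the chromosome is given wherever a symbol has more than 1 row. Rpl36al also belongs to the ribosome but falls outside the rule, and it is described with the gene lists.

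All 24 libraries came from mouse embryonic stem cells that carry the Per2::Luciferase knock-in, a reporter of the circadian clock. The control cells are called WT. The KO cells lack Rev-erbα and Rev-erbβ, nuclear receptors that repress transcription, after CRISPR/Cas9 deletion of exons of first Rev-erbβ and then Rev-erbα in picked colonies. Both were differentiated as embryoid bodies to day 28 and then received 100 nM dexamethasone to set the clock. Samples were taken at steps of 4 h, the first at 12 h and the last at 56 h after dexamethasone. At each time 3 embryoid bodies were pooled into 1 library per genotype, so the 12 libraries of a genotype are different time points of 1 cell line. An effect of the genotype and a difference between the cell lines cannot be told apart, and p-values measure the spread between these libraries only.

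Ribosomal proteins are made in nearly equal numbers, and their genes are among the most strongly transcribed of any dividing or secreting cell. Their mRNAs begin with a 5′ terminal oligopyrimidine (TOP) tract, a run of C and T bases at the transcription start through which the mTOR kinase, acting on LARP1, controls their translation together. Their promoters lack a common TATA box and often hold sites for GABPA and YY1, and MYC raises their transcription with that of ribosome biogenesis genes.

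Reads were counted on the exons of UCSC known genes and deposited as RPKM. This unit divides reads by exonic length and by library total, so that levels of genes can be compared per length. Exons received 6183500 to 10287969 fragments per library, which is 44.7% to 46.0% of the library totals. The ribosomal protein genes received 182677 to 349264 fragments per library, so counting error is small for all but the rarest rows. Because alignments with a mapping quality under 10 had been removed, reads that also match a retrocopy were lost, and the levels of genes with near-identical copies are uncertain. Fibroblast matrix genes were the most abundant of the cell type lists, summing to 2903 to 4078 RPKM, and the 8 pluripotency genes summed to 1.04 to 10.9 RPKM, with Zfp42 under 0.1 RPKM on average.

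RefSeq start regions (GRCm38.p6, 250 bases before to 50 after the annotated start) were matched by symbol for 64 of the 85 symbols, 60 of them expressed. A C was the first transcribed base in 21 of the 60, or 35.0%, against 14.9% of 11007 expressed genes, and an unbroken run of at least 8 C or T bases lay within 20 bases of the start in 28 of the 60, or 46.7%, against 16.0%. The letters CTTTCC on the sense strand within 20 bases of the start were found for 10 members, or 16.7%, against 2.27% of expressed genes and 1.95% of all 32851 start regions. To show this tract, the stretches from 80 bases before to 30 after the start of 3 members are printed 5′ to 3′, Rpl38 from chr11:114668500-114668609 on the plus strand, Rpl28 from chr7:4792885-4792994 on the plus strand and Rpl18 from chr7:45717991-45718100 on the plus strand, with CTTTCC and CCGGAAG in capitals.
Rpl38: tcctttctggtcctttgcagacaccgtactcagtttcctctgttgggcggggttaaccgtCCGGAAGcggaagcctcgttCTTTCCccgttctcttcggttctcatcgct
Rpl28: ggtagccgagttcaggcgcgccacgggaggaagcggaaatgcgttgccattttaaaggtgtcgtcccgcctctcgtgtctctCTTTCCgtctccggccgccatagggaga
Rpl18: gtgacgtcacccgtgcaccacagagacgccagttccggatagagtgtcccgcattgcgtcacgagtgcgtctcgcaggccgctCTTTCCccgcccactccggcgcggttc

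CCGGAAG, the core bound by GABPA and other ETS factors, was present on either strand of the 300-base region in 25 of 60 members, or 41.7%, against 18.04% of expressed genes and 8.86% of all start regions. AAGATGGC, the core bound by YY1, was present in 6 members (10% against 4.82% of expressed genes), and the E-box CACGTG, bound by CLOCK and BMAL1 as well as by MYC, in 6 (10% against 11.2%). CCAAT, bound by NF-Y, was found in 19 members (31.7% against 42.3%) and AGGTCA, the core element read by REV-ERB and ROR receptors, in 5 (8.33% against 15.2%). TATAAA between 50 and 15 bases before the start occurred in 1 member, Rpl22l1 (1.67% against 2.15%). These are matches of letters in a fixed window, not sites shown to be bound. For these letters and for CTTTCC a gene was counted if any of its annotated start regions held them. Genes with more starts thus had more chances, and the 64 symbols of the family had 76 regions. Shares of all start regions are per region rather than per gene. The first base and the run of C or T bases were read from 1 region per gene. For the members at both ends of the genotype comparison described further on, the same stretches are printed with the same capitals, Rpl39 from chrX:37085193-37085302 on the minus strand, Rps25 from chr9:44407634-44407743 on the plus strand, Rps3a1 from chr3:86142639-86142748 on the minus strand, Rps26 from chr10:128626477-128626586 on the minus strand, Rpl7l1 from chr17:46782627-46782736 on the minus strand and Rpl34 from chr3:130730369-130730478 on the minus strand.
Rpl39: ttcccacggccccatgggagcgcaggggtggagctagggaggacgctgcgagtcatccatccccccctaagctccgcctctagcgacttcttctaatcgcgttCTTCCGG
Rps25: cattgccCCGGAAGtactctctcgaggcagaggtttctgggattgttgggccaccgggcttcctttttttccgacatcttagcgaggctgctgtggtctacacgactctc
Rps3a1: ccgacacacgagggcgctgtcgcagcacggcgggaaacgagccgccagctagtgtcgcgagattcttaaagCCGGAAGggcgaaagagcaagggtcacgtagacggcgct
Rps26: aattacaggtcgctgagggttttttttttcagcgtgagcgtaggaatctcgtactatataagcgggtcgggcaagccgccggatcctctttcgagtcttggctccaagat
Rpl7l1: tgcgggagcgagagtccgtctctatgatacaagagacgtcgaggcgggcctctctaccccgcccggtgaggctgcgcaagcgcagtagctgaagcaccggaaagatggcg
Rpl34: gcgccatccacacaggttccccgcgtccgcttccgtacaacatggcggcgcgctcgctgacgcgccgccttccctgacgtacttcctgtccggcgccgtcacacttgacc
The 4 with the larger differences, Rpl39, Rps25, Rps3a1 and Rps26, all hold CCGGAAG in the 300-base region, for Rps26 farther upstream than the printed stretch. So does a second annotated start of Rpl34, the member with the second smallest difference. Rpl13a, Rpl12, Rpl22l1 and Rps28, the next members by difference that have a start region, do not hold it. A link between these letters and the size of the difference was not tested.

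Summed over the 88 rows, the level was 18385 ± 1393 RPKM in the WT libraries and 20376 ± 1547 RPKM in the KO libraries (SD over n = 12 time points each), which gives a ratio of 1.11. In WT the sum had its lowest value at 17004 RPKM, its median at 17998 and its highest at 21490, and in KO the lowest, median and highest were 18458, 20190.5 and 23121 RPKM. The ranges overlapped, and KO was above WT at 10 of 12 time points, the exceptions being 20 h and 56 h. The highest WT library was that at 20 h, followed by 40 h, and the highest KO libraries were those at 36, 40, 44 and 24 h. The members took 9.89% ± 0.516 of the RPKM total of a library in WT and 10.7% ± 0.557 in KO, and 3.04% ± 0.214 and 3.34% ± 0.238 of the exonic fragments, the latter shares being lower because the mRNAs are short.

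**Figure D1:**
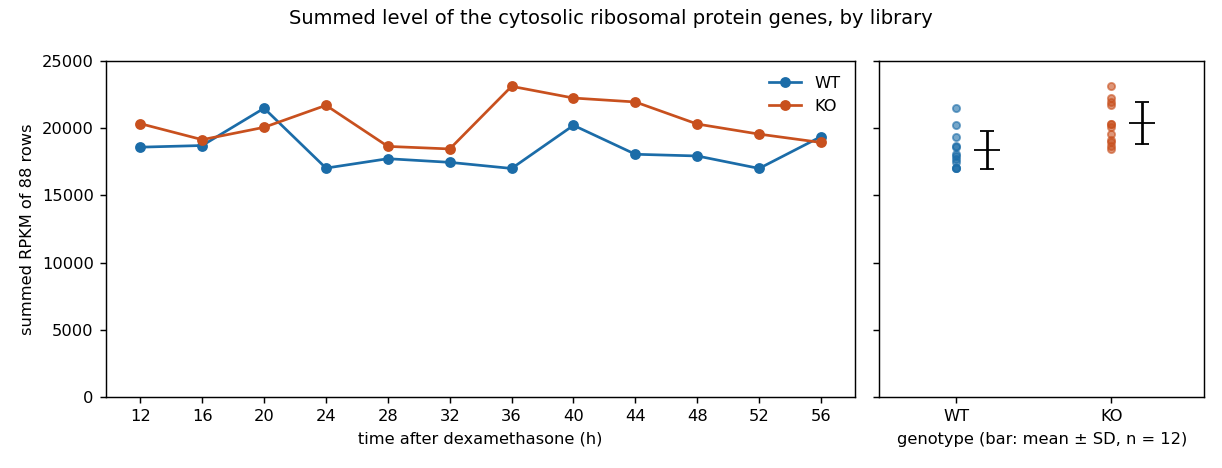
Summed RPKM of the 88 ribosomal protein rows (y axis) against time after dexamethasone (left, 1 library per point) and by genotype (right, bars are mean ± SD over 12 time points). KO lies above WT at 10 of 12 time points, with WT higher at 20 h and 56 h.

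By RPKM, which corrects for length, Rplp1 had the highest level of the family, with a lowest, median and highest value of 590, 645 and 814 RPKM in WT and 670, 746 and 857 RPKM in KO. Rplp1 and Rplp2 encode the acidic P1 and P2 proteins that form the stalk of the large subunit with P0, and several copies of each are bound to a ribosome. Rplp2, at 425 ± 31.4 RPKM in WT and 476 ± 35.9 in KO, was also among the 5 highest, and Rplp0, which anchors the stalk, had 258 ± 19.5 and 283 ± 18.1 RPKM. Between Rplp1 and Rplp2 stood Rps12 of the small subunit (585 ± 52.3 in WT and 640 ± 51.9 RPKM in KO), Rpl41, which encodes a very short peptide (564 ± 62.4 and 620 ± 57.9), and Rpl13 (439 ± 27.0 and 478 ± 32.3). Rps12 and Rpl41 overlapped in range in both genotypes. Rpsa, the laminin receptor precursor that assembles into the 40S subunit, had 221 ± 18.9 and 241 ± 16.2 RPKM. In all, 61 of the 88 rows had a mean between 100 and 400 RPKM.

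Paralogs named with the suffix l were much lower than their partners. By RPKM Rpl22l1, the paralog of Rpl22, was the exception, with 60.5 ± 5.47 RPKM in WT and 69.4 ± 5.08 in KO against 32.7 ± 2.80 and 36.0 ± 2.82 RPKM for Rpl22, and its lowest library (52.6 RPKM) exceeded the highest of Rpl22 (43.2 RPKM). By fragments the order was the reverse, with means of 1298 per library for Rpl22 and 539 for Rpl22l1. The order thus depends on the annotated exonic lengths, 2149 bases for Rpl22 and 473 for Rpl22l1, and the transcripts present were not tested. Rps27l, a p53 target, was measured at 53.5 ± 5.77 RPKM in WT and 60.5 ± 4.28 in KO, beside 366 ± 32.5 and 401 ± 42.4 RPKM for Rps27 on chromosome 3. Rps4l, a single-exon relative of the X-linked Rps4x, had 20.4 ± 3.37 and 23.0 ± 1.96 RPKM, beside 350 ± 22.7 and 381 ± 23.3 for Rps4x. Rpl7l1 had 14.9 ± 0.948 and 15.4 ± 0.686 RPKM, beside 325 ± 22.9 and 349 ± 23.0 for Rpl7. The testis paralogs Rpl10l and Rpl39l and the muscle paralog Rpl3l were at or near 0, with means of 0.0105, 0.0342 and 0.0212 RPKM and with 20, 11 and 13 of 24 libraries at 0, and Rpl32l averaged 0.336 RPKM. The 3 rows of Rpl29 stood at 19.5 RPKM (chromosome 9, with introns), 1.62 RPKM (chromosome 5) and 0.740 RPKM (chromosome 1), the last 2 being single-exon copies with a mean of 18.1 and 8.31 fragments per library.

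To ask whether loss of the REV-ERBs changed the family, the genotypes were compared with limma on log2(RPKM + 0.1) over all expressed genes. All 83 rows had a higher mean in KO, and 59 rose past the threshold of a Benjamini-Hochberg adjusted p under 0.05 while none fell (80 had an unadjusted p under 0.05, each of them higher in KO). That is 71.1% of the family, whereas 11.2% of all tested genes were called higher and 14.7% lower. The median difference was 0.15 on the log2 scale, a ratio of 1.11, against a median of -0.01 for all genes, and the large and small subunits were alike, with 37 of 50 and 22 of 33 rows called and medians of 0.14 and 0.16. In 50 rows every KO library exceeded the WT median, which held for 6.15% of all genes. In 57 rows KO was above WT at 10 or more of 12 time points, a count met by 13.9% of all genes, and in the other 26 at 7 to 9 time points. Counted by time point, 59 to 83 rows were higher in KO at each time except 20 h and 56 h, when 16 and 17 rows were. In bulk RNA a change in the number of cells of a type and a change in RNA per cell cannot be told apart.

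**Figure D2:**
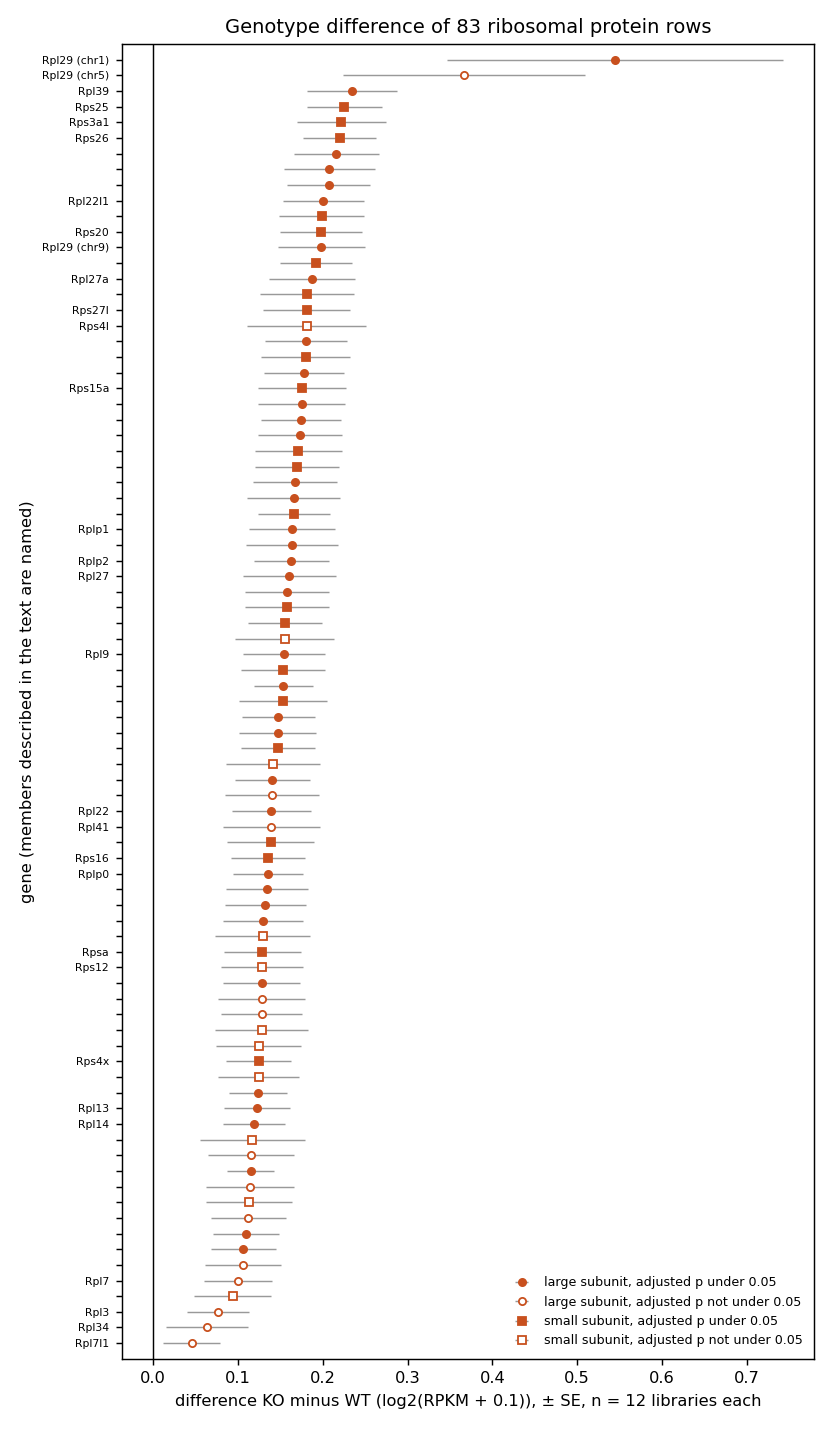
Difference between KO and WT (x axis, log2(RPKM + 0.1), bars are ± SE from limma, n = 12 libraries per genotype) for each of 83 expressed rows (y axis, members described in the text are named), with filled symbols where the adjusted p was under 0.05. Every row lies to the right of 0 and 59 are filled, with the low-level copies of Rpl29 on chromosomes 1 and 5 showing the widest errors.

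Of the rows past the threshold, the largest rise was in the single-exon Rpl29 copy on chromosome 1, at a lowest, median and highest of 0.239, 0.630 and 1.08 RPKM in WT and 0.363, 0.894 and 1.26 RPKM in KO (log2 difference 0.54 ± 0.20 SE, adjusted p = 0.0447). The ranges overlapped widely, and with time point as a block (adjusted p = 0.0749) or with the length trend removed (adjusted p = 0.0772) the call was lost. The copy on chromosome 5 had the next larger difference but did not pass (0.37 ± 0.14, adjusted p = 0.0595). Next among the called rows came Rpl39, an X-linked gene for a very short protein at the exit tunnel, with 216, 245 and 285 RPKM in WT and 262, 286 and 342 RPKM in KO (0.23 ± 0.05, adjusted p = 0.00225). At all 12 time points it was the higher in KO. Rps25, a 40S protein used by several viral and cellular internal ribosome entry sites, had 187, 200 and 233 RPKM in WT and 215, 240 and 270 RPKM in KO (0.23 ± 0.04, adjusted p = 0.000709). In 7 of 12 KO libraries Rps25 exceeded every WT library. Rps3a1, whose protein binds initiation factors on the 40S subunit, had 84.4, 96.9 and 114 RPKM in WT and 104, 114 and 140 RPKM in KO (0.22 ± 0.05, adjusted p = 0.00298). Rps26, whose protein lies at the mRNA exit channel, had 281, 313 and 347 RPKM in WT and 321, 372 and 404 RPKM in KO (0.22 ± 0.04, adjusted p = 0.000705), and 8 of 12 KO libraries exceeded every WT library. Rps25, Rps3a1 and Rps26 were each higher in KO at 11 of 12 time points, the exception being 56 h. After quantile normalization the differences of Rpl39, Rps25 and Rps26 were 0.11, 0.15 and 0.13, still called.

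Among the stalk genes Rplp1 (0.16 ± 0.05, adjusted p = 0.0194), Rplp2 (0.16 ± 0.04, adjusted p = 0.00877) and Rplp0 (0.14 ± 0.04, adjusted p = 0.0191) all rose, as did Rpsa (0.13 ± 0.05, adjusted p = 0.0381) and the highly expressed Rpl13 (0.12 ± 0.04, adjusted p = 0.0228). After quantile normalization Rplp2 was still called (0.11, limma adjusted p = 0.0337) but Rplp1 (0.08, adjusted p = 0.348), Rplp0 (0.003, adjusted p = 0.941), Rpsa (0.06, adjusted p = 0.191) and Rpl13 (0.07, adjusted p = 0.119) were not, and Rpsa also lost its call with TPM scaling and without the filter on low values. Of the paralogs, Rpl22l1 (0.20 ± 0.05, adjusted p = 0.00358) and Rps27l (0.18 ± 0.05, adjusted p = 0.0117) rose by amounts within the range of the canonical genes, and Rpl29 on chromosome 9 did too (0.20 ± 0.05, adjusted p = 0.00616). Rps4l differed by 0.18 ± 0.07 (adjusted p = 0.0611), Rps12 by 0.13 ± 0.05 (adjusted p = 0.0526) and Rpl41 by 0.14 ± 0.06 (adjusted p = 0.0751), all short of the threshold, although with time point as a block Rps4l passed (adjusted p = 0.0148). The smallest differences were those of Rpl7l1 (0.05 ± 0.03, adjusted p = 0.335), Rpl34 (0.06 ± 0.05, adjusted p = 0.353) and Rpl3 (0.08 ± 0.04, adjusted p = 0.126). Rpl7l1, a protein of nucleolar pre-ribosomes rather than of the mature 60S subunit, had 13.4, 14.8 and 17.1 RPKM in WT and 14.6, 15.3 and 17.2 RPKM in KO, almost the same range. Rpl34 had 187, 210 and 235 RPKM in WT and 196, 219 and 253 RPKM in KO, and KO was above WT at 7 of 12 time points.

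**Figure D3:**
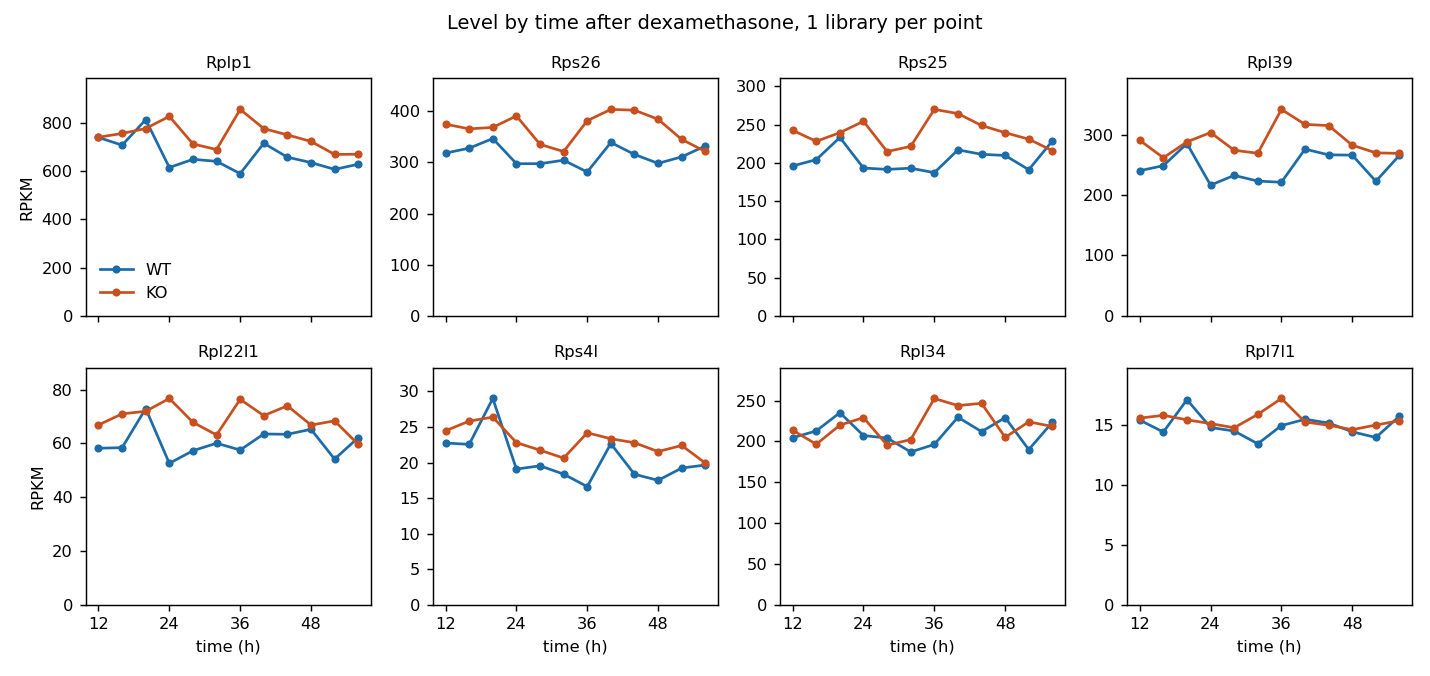
RPKM (y axis, from 0) against time after dexamethasone in h (x axis) for 8 members in WT and KO, 1 library per point. Rps26, Rps25 and Rpl39 lie higher in KO at 11, 11 and 12 of 12 time points, while Rpl34 and Rpl7l1 run together in both genotypes, and most WT curves peak at 20 h.

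Among the 81 members at 10 RPKM or more the difference between the genotypes ran from 0.05 to 0.23, with a median of 0.15. When each library was scaled to the mean of the 81 members at 10 RPKM or more, a setting chosen after seeing the data, 5 of 83 rows were called against the family: Rps25 and Rpl39 were higher, by 0.07 ± 0.03 and 0.08 ± 0.03 (SE), and Rpl7l1, Rpl34 and Rpl3 were lower, with differences of -0.10 ± 0.04, -0.09 ± 0.03 and -0.07 ± 0.03 (limma adjusted p from 0.0192 to 0.0281). On that scale 57.6% of all genes were called, and with time point as a block none of the 5 members was. Because these same members set the scale, a low count among them follows in part from the setting. The share of all genes is therefore no comparison for it.

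The size of the shift varied with time. Over the first 6 time points, 12 to 32 h, the median difference was 0.10 and 2 members were called higher (3.22% of all genes), and over 36 to 56 h it was 0.20 and 22 were (5.94% of all genes). The later difference was the larger in 77 of 83 rows, but a test of the change between the early and late time points gave no call and 1 member with an unadjusted p under 0.05, against 6.66% of all genes, so a change was not shown. Leaving out WT at 20 h and KO at 36 h, the highest library of each genotype, left the median at 0.15 with 72 members called. The share of all genes called in that setting is not at hand, so the count cannot be set against it.

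The family was also tested for a 24 h rhythm and for a steady change after dexamethasone. No member passed the adjusted threshold for a rhythm in WT or in KO, where 0.0463% and 0.0728% of all genes did. No member or other gene was called for a difference in rhythm between the genotypes (limma). The study reports that the rhythms of Bmal1 and Npas2 were lost in KO, and this test did not call them either. The lack of calls therefore does not show that the rhythms of the members were alike. Unadjusted, 1 member in WT (1.20%, against 7.57% of all genes) and 9 in KO (10.8%, against 7.92%) had p under 0.05, and none for the difference (4.82% of all genes). JTK_CYCLE, a rank test for rhythms, also called none, with an unadjusted p under 0.05 for 0 members in WT and 1 in KO. The smallest p in WT was that of Rpl39, whose fitted rhythm had a peak 1.21 times its trough (p = 0.0495, limma adjusted p = 0.658), followed by Rpl9 (1.17 times, adjusted p = 0.660) and Rpl3 (1.14 times, adjusted p = 0.664). In KO they were Rps26 (1.20 times, adjusted p = 0.512), Rps16 (1.18 times, adjusted p = 0.553) and Rpl27 (1.23 times, adjusted p = 0.601). For the difference the smallest p belonged to Rpl7l1 (p = 0.220), Rps16 (p = 0.276) and Rpl14 (p = 0.296), all with a limma adjusted p of 0.9998. Without WT at 20 h and KO at 36 h the number of members with an unadjusted p under 0.05 in KO was 28, and still none passed the adjusted threshold. No share of all genes is at hand for this setting or for the rank test, so these counts cannot be read as particular to the family. Nor did any member change steadily over time, whereas 2.38% of all genes did in each genotype. The median slope was 0.02 per 24 h in WT and 0.05 in KO on the log2 scale. The steepest by p was Rps16 in KO (0.15 ± 0.05 per 24 h, limma adjusted p = 0.0960) and Rpl29 on chromosome 9 in WT (0.18 ± 0.07, adjusted p = 0.175).

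Although no clock-like rhythm was called, the members rose and fell together from library to library. Over the 24 libraries the first principal component of the 81 members at 10 RPKM or more held 86.5% of their scaled variance, and within genotypes 82.3%, against 23.7% for 3512 other genes at 10 RPKM or more within genotypes. For related lists at that level the share within genotypes was 49.6% for 19 TOP translation factors, 52.0% for 16 ribosome biogenesis genes and 44.0% for 31 mitochondrial ribosomal proteins. The median correlation between pairs of members was 0.89 over 24 libraries and 0.85 within genotypes, and was 0.07 for pairs of the other genes within genotypes. Of the 81 members, 68 had a correlation above 0.9 with the mean of the others. Rpl27a was among the 3 that followed it most closely (r = 0.98), and Rps4l (r = 0.72), Rpl29 on chromosome 9 (r = 0.68) and Rpl7l1 (r = 0.62) followed it least, these 3 being the lowest in level. The means of the 48 large-subunit and 33 small-subunit members differed by at most 0.04 on the log2 scale in any library. A member varied within a genotype with a median SD of 0.12 on the log2 scale, against 0.09 for the other genes at 10 RPKM or more, and after the mean of all members was subtracted by 0.05. All these points share the library and its scaling, so the correlations are descriptions.

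The common profile had its WT peak at 20 h, the highest WT library for 67 of 83 rows, and its KO peak at 36 h, the highest KO library for 61 rows. At 36 h the genotypes were farthest apart, since that time also gave the lowest WT library, with mean deviations of -0.19 in WT and 0.26 in KO on the log2 scale. Set against each other over the 12 matched times, the profiles of the genotypes gave Pearson r = -0.06 and Spearman rho = -0.09 (r = -0.39 once the 2 WT libraries most distant from their median were left out). Fitted 24 h peaks, with no rhythm called, lay between 16 and 19 h in 72 of 83 rows in WT and 78 in KO. The members share their libraries, so these rows are not separate evidence of a common timing, which was not tested. After removal of genotype, trend and 24 h terms the first component still held 85.3%.

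**Figure D4:**
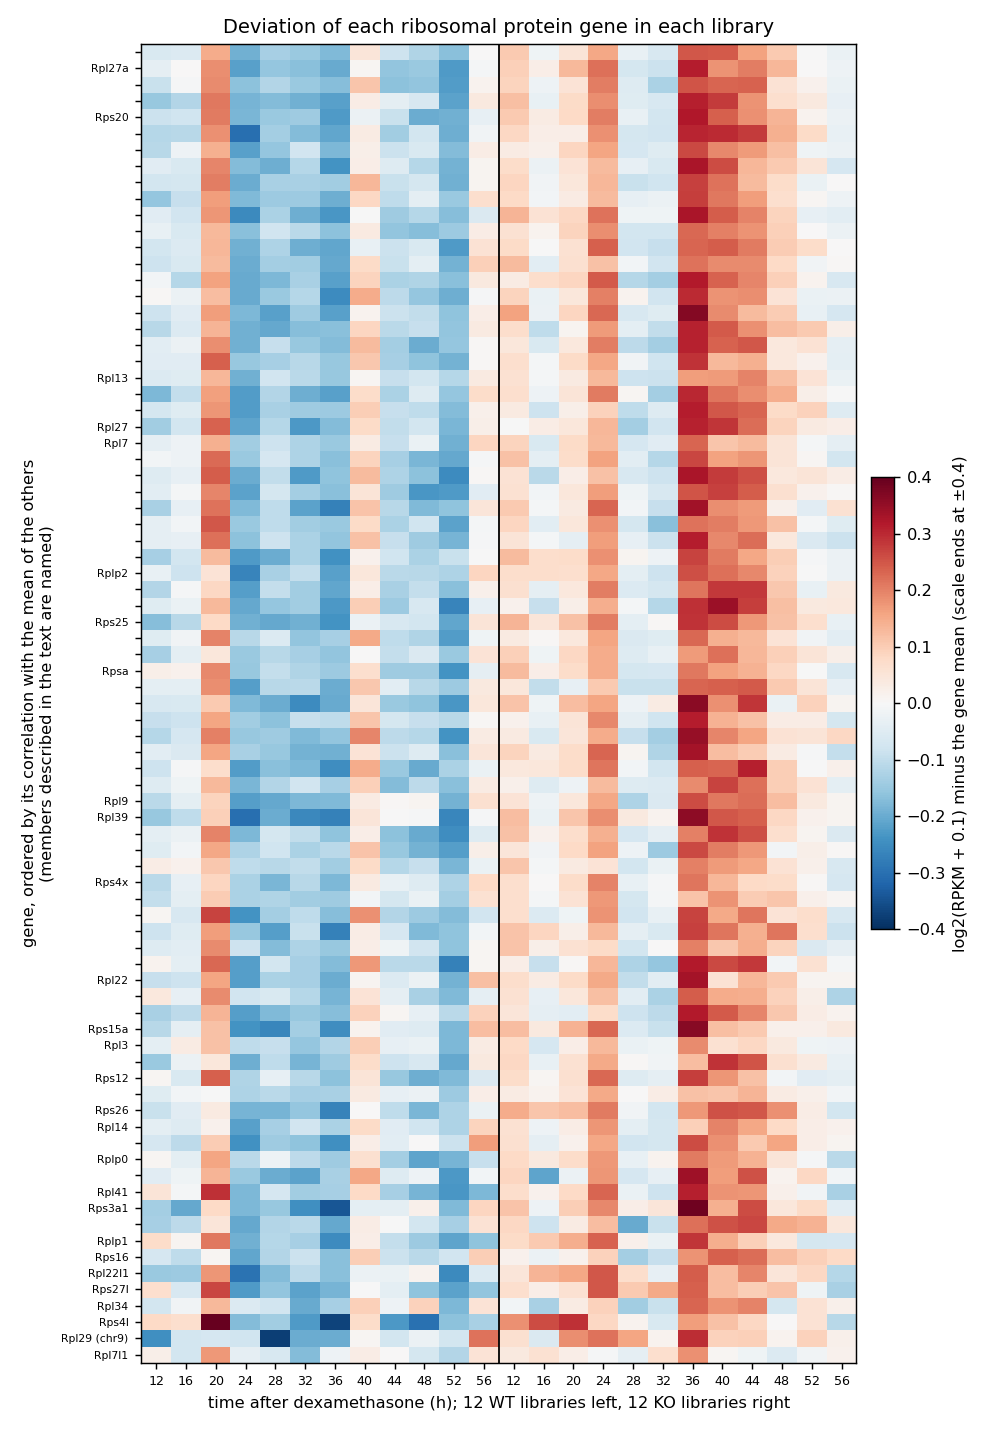
Deviation of each of 81 members (rows, ordered by correlation with the mean of the others, with members described in the text named) from its own mean in each library (columns, hours after dexamethasone, WT left and KO right), in log2(RPKM + 0.1) with red for higher. Columns, not rows, carry the pattern: WT 20 h and KO 24, 36, 40 and 44 h are red for nearly every member, and Rpl7l1 at the bottom is the palest.

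The level of the family moved with a property of the libraries that was measured on other genes. Members have short mRNAs, with a median exonic length of 706 bases against 2814 for expressed genes. In each library the deviation of the other expressed genes was regressed on their log2 exonic length, which gave slopes from -0.09 in KO at 36 h to 0.06 in WT at 36 h per doubling of length. The mean deviation of the members was high where the slope was negative (Pearson r = -0.90, Spearman rho = -0.88, n = 24, and r = -0.87 without the 2 libraries farthest from the median slope). Within WT r was -0.88 (-0.56 without the 2 farthest) and within KO -0.87 (-0.74). The 1504 other genes among the shortest 10%, of at most 1119 bases, had a median difference between the genotypes of 0.04, with 12.9% called higher and 4.65% lower, and the longest 10% a median of -0.07, with 5.52% called higher and 25.0% lower. The 128 of the short ones at 50 RPKM or more, closer to the members in level, had a median of 0.07, with 25.8% called higher and 3.91% lower. For all 468 other genes at 50 RPKM or more the median was 0.05, with 24.6% called higher and 10.5% lower. With the length trend of each library removed, the median of the members was 0.11, and 63 of 83 were called higher (14.1% of all genes) and none lower. The trend was fitted over all expressed genes. The median of -0.003 that the 1504 other short genes then had follows from the removal itself and is no comparison for the members. The first component of the members then held 65.2%. Of the 3 members with the longest annotated exons, named after their values were seen, Rps15a (5129 bases, 0.18 ± 0.05, adjusted p = 0.0154) and Rps20 (3442 bases, 0.20 ± 0.05, adjusted p = 0.00429) rose, and Rpl7l1 (2599 bases) had 0.05 ± 0.03 (adjusted p = 0.335). Annotated length can exceed that of the transcripts present: Rps15a and Rps20 had means of 2660 and 4420 fragments per library but 29.5 and 73.1 RPKM. The length of their transcripts was not tested, so these 3 members do not bear on the length slope. Quantile normalization reduced the median to 0.06 with 23 members called higher (11.9% of all genes) and none lower. What part RNA quality or library preparation had in these slopes was not tested.

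**Figure D5:**
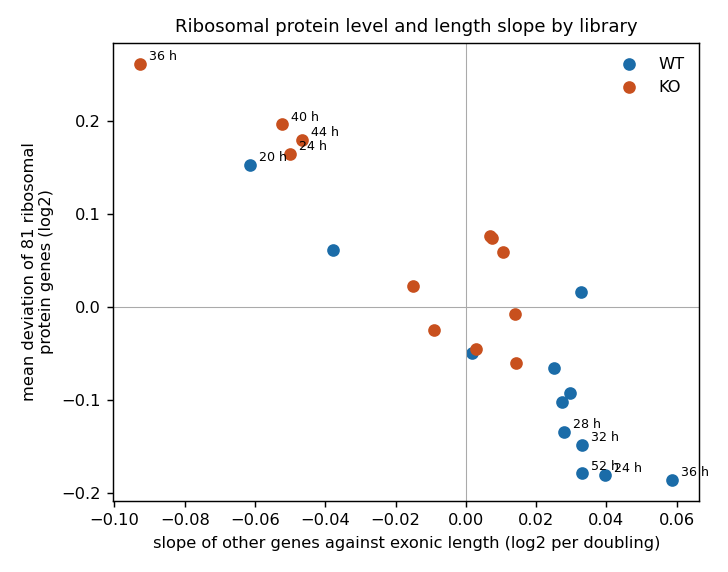
Mean log2 deviation of 81 members (y axis) against the slope of other genes on exonic length in the same library (x axis, log2 per doubling), 1 point per library. Points run from upper left (KO at 36 h, 0.26) to lower right (WT at 36 h, -0.19), and KO libraries lie to the upper left of most WT libraries.

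Genes outside the symbol rule that work with these proteins were read from the same fit. Rpl36al, a paralog of the gene for a 60S protein, rose (52.9 ± 5.01 RPKM in WT and 60.2 ± 4.77 in KO, 0.19 ± 0.05, adjusted p = 0.00776). Among 20 translation factors and other genes whose mRNAs carry a TOP tract, 7 rose (35.0%, against 11.2% of all genes) and none fell, with a median of 0.07. After quantile normalization 2 of the 20 were called higher, which is not above the 11.9% of all genes called in that setting. The 7 that rose included the poly(A) binding protein gene Pabpc1 (130 ± 5.41 and 145 ± 7.87 RPKM, 0.16 ± 0.03, adjusted p = 0.000663) and the elongation factor genes Eef1b2 (0.13 ± 0.05, adjusted p = 0.0478) and Eef1g (0.13 ± 0.03, adjusted p = 0.00879). The mean of these TOP genes followed that of the ribosomal proteins over the 24 libraries (r = 0.92, rho = 0.93, and 0.90 without the 2 farthest).

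Mitochondrial ribosomal proteins, which build a separate ribosome and carry no TOP tract as a class, had a median of 0.05, with 6 of 78 rows called higher and none lower. That share of 7.69% is below the 11.2% of all genes called higher. Mrpl13 (0.23 ± 0.05, adjusted p = 0.00144), Mrpl14 (0.18 ± 0.05, adjusted p = 0.0132) and Mrpl57 (0.17 ± 0.06, adjusted p = 0.0427) had the largest differences. Their mean nevertheless followed that of the cytosolic family over the libraries (r = 0.91, rho = 0.88, and 0.89 without the 2 farthest), and these genes share the library and its length slope with it. Of 47 genes for ribosome biogenesis 4 were called higher (8.51%, also below the 11.2% of all genes) and none lower, with a median of 0.05, the largest differences among the 4 being those of Polr1d, a subunit shared by RNA polymerases I and III (0.19 ± 0.06, adjusted p = 0.0245), Nhp2, a protein of box H/ACA particles (0.16 ± 0.06, adjusted p = 0.0386), and the nucleostemin gene Gnl3 (0.15 ± 0.05, adjusted p = 0.0185). None of 10 snoRNA host genes was called in limma (median 0.06, 2 with an unadjusted p under 0.05).

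Of 27 regulators of ribosomal protein synthesis 4 rose and 4 fell, shares of 14.8% each that are near the 11.2% and 14.7% of all genes called higher and lower. Myc, the activator of ribosome biogenesis, rose from 5.31 ± 0.485 RPKM in WT to 6.53 ± 0.663 in KO (0.29 ± 0.05, adjusted p = 0.000464), and its relative Mycl from 2.48 ± 0.5004 to 3.10 ± 0.576 RPKM (0.32 ± 0.10, adjusted p = 0.0278). Tsc1, whose product restrains mTOR complex 1, fell from 3.18 ± 0.212 to 2.71 ± 0.160 RPKM (-0.22 ± 0.04, adjusted p = 0.000145) and lay below WT at all 12 time points. Mlst8, an mTOR subunit gene named outside the rule of the 3 largest changes, fell as well (-0.20 ± 0.04, adjusted p = 0.00194). The mean of the 27 regulators had an r of 0.32 with the family over 24 libraries (rho = 0.30, and 0.26 without the 2 farthest).

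Lists for dividing cells and cell types differed between the genotypes too, and their part in the shift of the family was not tested. Of all genes 11.2% were called higher and 14.7% lower, against which the counts of these short lists stand. None of 15 proliferation genes was called in limma (median 0.24, 2 with an unadjusted p under 0.05), and they summed to 31.2 to 61.9 RPKM in WT and 36.9 to 65.6 in KO. Of 8 leukocyte markers 3 rose, Lyz2, Adgre1 and C1qa, the list summing to 550 to 826 RPKM in WT and 639 to 859 in KO, and its mean had an r of 0.78 with the family (rho = 0.77, and 0.70 without the 2 farthest). Of 10 rows of striated muscle markers 9 rose and 1 fell (50.4 to 94.7 against 73.5 to 145 RPKM), of 6 smooth muscle markers 4 rose (278 to 375 against 292 to 424 RPKM), of 7 fibroblast matrix markers 4 rose and 1 fell (2903 to 3427 against 3121 to 4078 RPKM), and of 6 endothelial markers 3 rose (5.53 to 19.5 against 10.04 to 18.6 RPKM). Of 8 neuronal markers 4 fell (5.202 to 46.9 against 2.99 to 13.8 RPKM). None of 8 endoderm, 4 pluripotency and 2 erythroid markers was called, and none of these had an unadjusted p under 0.05 (limma), with Hbb-y and Hba-x averaging under 0.1 RPKM. Within WT and within KO the leukocyte mean had an r of 0.62 and 0.63 with the family (rho = 0.59 and 0.48, and r = 0.53 and 0.34 without the 2 farthest). Within genotypes the mean of the fibroblast, striated muscle and smooth muscle lists had an r between -0.29 and 0.48 with the family.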

How the data were processed

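RNA was measured by polyA-selected RNA-seq (101-bp paired-end reads) in 12 WT and 12 KO libraries, grouped by the genotype in their titles. The authors trimmed reads with Trimmomatic 0.36, aligned them to GRCm38 with STAR 2.5.4b, kept a mapping quality of at least 10, counted exons of UCSC known canonical genes with HOMER (versions per the labels) and deposited RPKM with each exonic length. Fragments, recovered in steps of 0.5, served to describe depth. The use of strand is not given in the sources used here.

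Genes above 0.5 RPM on average in a genotype were fitted with limma 3.58.1 (R 4.3.3) on log2(RPKM + 0.1), which understates changes of rare genes, with Benjamini-Hochberg adjustment over all 15112. Rhythm and trend came from 1 model with linear time and cosine and sine of 24 h for each genotype, because MetaCycle was not at hand. Other values were computed in Python 3.11.15 (numpy 2.4.6, pandas 2.3.3, scipy 1.17.1, matplotlib 3.10.9). Fits were tested on simulated data. Members and lists were chosen with earlier results of these data known. Genes named are the 5 highest and lowest in level, the 5 largest changes per direction, the 3 smallest p for rhythm, paralogs, stalk genes and Rpsa, the 3 most and least like the family and the 3 largest changes in lists, unless stated. A few genes that this rule names are not reported here. Alternatives covered pseudocount, filters, scaling, length, blocks, covariates, time windows, period and a rank test.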

Additional observations from a re-analysis of the deposited data

How the results depend on the processing

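The number of members called higher in KO lay between 50 and 68 of 83 (88 without a filter, 82 with a filter at 1 RPKM) under pseudocounts of 1 and 0.01, both filters, TPM scaling, scaling to exons without the members, removal of the length trend, an intensity trend, the covariates and the replicate block, against 59 as reported. It was 23 after quantile normalization, 2 with 12 to 32 h only and 22 with 36 to 56 h only, the last 2 with fewer samples. The cause of the change with quantile normalization was not tested. With time point as a replicate block it was 53, and 64 when the length trend was removed as well. Libraries of the same time point deviated with correlations from -0.23 to 0.42 (mean 0.21, against -0.02 for different time points). As not every time point was above 0.1, they were not treated as pairs, though on average they deviated together. Leaving out 1 library at a time, an alternative added after seeing the data, gave 45 to 76 calls and a median difference of 0.133 to 0.169. The share of all genes called higher is given above for the main fit, removal of the length trend, quantile normalization and the 2 time windows. For the other settings, each library left out included, it is not at hand, so those counts cannot be set against it. The number of members called lower was 0 in every setting, and the numbers for rhythm in WT, in KO and between genotypes, for trend in WT and for the difference in trend were 0 in every setting that tests them, including each library left out (0 to 0). For trend in KO the number was 1 after quantile normalization (Rps16) and 0 otherwise. The share on the first component was 76.8% with TPM scaling and 65.2% with the length trend removed, against 86.5%. The ratio of the summed level was 1.11, and 1.10 as a share of exonic fragments. Of 25 members named by rule none reversed its genotype difference in any setting. With 1 library per time point no single time point can be tested.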
